A study of Homo sapiens with 12 samples.

Results

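Integrin subunits and laminin chains are described here in cells of head and neck squamous carcinoma (HNSCC) with and without cetuximab. They were picked by symbol alone, as every gene in the count tables whose name starts with ITGA, ITGB, LAMA, LAMB or LAMC and ends with the number or letter of the subunit or chain. This rule gave 38 of 33514 symbols, made up of 18 integrin alpha subunits, 8 integrin beta subunits, 5 laminin alpha chains, 4 laminin beta chains and 3 laminin gamma chains. It reads symbols and no measured value, but it was chosen with earlier results of these data known, as were the gene lists used below. In total, 34 of the 38 passed the filter on low counts and were tested among 17897 genes, while ITGA8, ITGA9, ITGAD and ITGAL were too rarely counted to be tested.

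Droplet-based single-cell RNA-seq (scRNA-seq), which counts unique molecular identifiers (UMIs) at the 3′ ends of transcripts, was performed on SCC1, SCC6 and SCC25, established HNSCC lines. The treated cells of a line had been given 100 nM of cetuximab, an antibody against the epidermal growth factor receptor, once a day for 5 days, and its untreated cells phosphate-buffered saline (PBS) over the same time. There were 2 libraries for each of the 6 groups, 12 in all, and each line was grown as tumour cells alone, without other tissue. Whether both libraries of a group came from separate cultures is not clear from the sources used here, so that p-values may cover only the spread between libraries. The libraries held 961 to 2854 cells and 57057402 to 112170073 UMIs, and any 2 libraries shared 1 to 13 cell barcodes. Levels are given as CPM, the UMIs of a gene per 1000000 UMIs of its library, scaled by TMM factors, always as replicates 1 and 2 in that order. Because only transcript ends were counted, CPM carries no factor for transcript length and was compared between genes as it stands. In such sums, fewer cells that express a gene and less RNA per cell cannot be told apart.

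Integrins are adhesion receptors in which an alpha and a beta subunit pair, and the pair decides which matrix protein is bound. Laminins are trimers of an alpha, a beta and a gamma chain and form the sheet of the basement membrane on which epithelium rests. In squamous epithelium, the pair of ITGA6 and ITGB4 anchors the basal cell, through the hemidesmosome, to a laminin that holds LAMA3 and LAMB3. The pair of ITGAV and ITGB6 belongs to epithelial cells, is scarce in resting epithelium and releases active transforming growth factor beta (TGF-β) from its latent form. ITGAL, ITGAM, ITGAX, ITGAD, ITGB2 and ITGB7 are best known from leukocytes, and ITGA2B with ITGB3 from platelets.

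Promoter sequences are shown for ITGB6 and ITGAV, which form a receptor and were higher with cetuximab, for LAMA3 and LAMB3, chains of a shared trimer, and for LAMB2, which was at or near 0 in SCC25. They come from RefSeq on build GRCh38.p14 and run from 250 bases before to 50 bases after a listed transcription start, 5′ to 3′ on the strand of the gene. RefSeq windows were matched for 26 of the 38 genes, with 33 windows in all because some genes have several starts. ITGB6 lies at chr2:160200223-160200522 on the minus strand and ITGAV at chr2:186589806-186590105 on the plus strand. LAMA3 lies at chr18:23872770-23873069 on the plus strand, LAMB3 at chr1:209651325-209651624 on the minus strand and LAMB2 at chr3:49133001-49133300 on the minus strand. For LAMB3 the window is 1 of 3 listed starts and for ITGAV 1 of 2. Capitals mark the AP-1 motif TGANTCA and the SP1 motif GGGCGG, searched on both strands together with the TEAD motif GGAATG and the TATA box TATAAA.
ITGB6: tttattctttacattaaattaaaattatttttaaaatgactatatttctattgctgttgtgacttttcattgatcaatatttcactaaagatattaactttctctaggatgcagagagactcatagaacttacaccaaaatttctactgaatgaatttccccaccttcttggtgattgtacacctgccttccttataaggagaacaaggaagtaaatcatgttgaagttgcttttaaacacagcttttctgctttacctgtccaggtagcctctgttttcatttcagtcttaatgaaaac
ITGAV: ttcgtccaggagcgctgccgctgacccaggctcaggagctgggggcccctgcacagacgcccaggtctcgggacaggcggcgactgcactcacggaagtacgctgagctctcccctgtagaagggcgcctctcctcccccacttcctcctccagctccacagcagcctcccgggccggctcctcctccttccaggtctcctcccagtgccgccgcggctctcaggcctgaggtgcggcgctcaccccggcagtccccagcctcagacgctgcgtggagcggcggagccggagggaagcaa
LAMA3: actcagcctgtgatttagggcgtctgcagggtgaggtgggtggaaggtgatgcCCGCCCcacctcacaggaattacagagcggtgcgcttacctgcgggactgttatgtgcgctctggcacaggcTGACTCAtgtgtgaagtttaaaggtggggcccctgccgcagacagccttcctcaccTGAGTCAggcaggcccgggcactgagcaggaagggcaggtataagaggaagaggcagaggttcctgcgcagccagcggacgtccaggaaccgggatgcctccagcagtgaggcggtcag
LAMB3: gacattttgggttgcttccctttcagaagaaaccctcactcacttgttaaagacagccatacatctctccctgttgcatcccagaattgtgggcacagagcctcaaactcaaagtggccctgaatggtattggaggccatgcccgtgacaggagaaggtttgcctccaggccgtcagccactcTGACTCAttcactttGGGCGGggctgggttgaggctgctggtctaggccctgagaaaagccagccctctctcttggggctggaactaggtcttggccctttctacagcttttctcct
LAMB2: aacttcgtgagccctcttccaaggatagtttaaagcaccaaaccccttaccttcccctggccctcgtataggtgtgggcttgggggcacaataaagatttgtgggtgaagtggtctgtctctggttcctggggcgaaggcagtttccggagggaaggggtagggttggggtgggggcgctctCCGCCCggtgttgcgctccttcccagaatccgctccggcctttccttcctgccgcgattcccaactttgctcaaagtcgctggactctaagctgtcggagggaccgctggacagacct

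The window of ITGB6 held no CpG and 31.7% G and C, whereas that of ITGAV held 23 CpGs and 70.7% G and C. The median over 35116 RefSeq windows was 58.7% G and C, and over the 33 windows of integrin and laminin genes 61.3%. None of the 4 motifs was found in either the ITGB6 or the ITGAV window. LAMA3 carried 2 AP-1 motifs and 1 SP1 motif, and the LAMB3 window shown carried 1 of each. The other 2 LAMB3 windows held no AP-1 motif and 1 SP1 motif each. AP-1 was present in 3 of the 33 windows (ITGA5, LAMA3 and LAMB3) and in 7.71% of all windows. The SP1 motif, a short GC-rich element, was present in 19 of the 33 windows and in 45.0% of all windows. TEAD was present in 4 of the 33 windows and 14.0% of all, and the TATA box in 2 of the 33 and 11.5% of all.

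The epithelial integrin subunits and laminin chains were counted in all 3 lines, though ITGB5 was low in SCC1 PBS, at 1.47 and 1.56 CPM. By the highest of the 12 libraries, 17 of the 38 genes reached 20 CPM, 4 lay between 5 and 20 CPM (ITGA4, ITGB2, ITGB8 and LAMA1), 4 between 1 and 5 CPM (ITGA1, ITGA7, LAMA2 and LAMA4), and 13 stayed under 1 CPM. To ask how far the lines differ before treatment, the 3 PBS groups were compared with the quasi-likelihood test of edgeR, and differences were called at a false discovery rate (FDR) under 0.05 over all genes. Levels differed between the lines for 26 of the 34 genes tested, where 59.2% of all genes tested were called. SCC6 against SCC1 gave 15 calls among the 34, 11 higher and 4 lower in SCC6, with 40.1% of all genes called. SCC25 against SCC1 gave 20 calls, 16 higher and 4 lower in SCC25, with 40.6% of all genes called. SCC25 against SCC6 gave 17 calls, 9 higher and 8 lower in SCC25, with 40.7% of all genes called. The median log2 difference of the 34 genes was 0.46 for SCC6 over SCC1, 0.96 for SCC25 over SCC1 and 0.52 for SCC25 over SCC6, beside medians over all genes of 0.003, 0.04 and 0.005. Leaving out SCC1 PBS replicate 1 or replicate 2 left 7 calls for SCC6 against SCC1, and leaving out SCC6 PBS replicate 1 left 9. SCC25 against SCC1 kept 11 calls without SCC1 PBS replicate 2 and 12 without SCC25 PBS replicate 1, and SCC25 against SCC6 kept 11 without SCC6 PBS replicate 1. Among the 26 genes called over the 3 lines, 15 were called whichever PBS library was left out, and the other 11 were ITGA2, ITGA2B, ITGA10, ITGAE, ITGB1, ITGB3, ITGB6, LAMA2, LAMA3, LAMA5 and LAMB4.

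**Figure D1:**
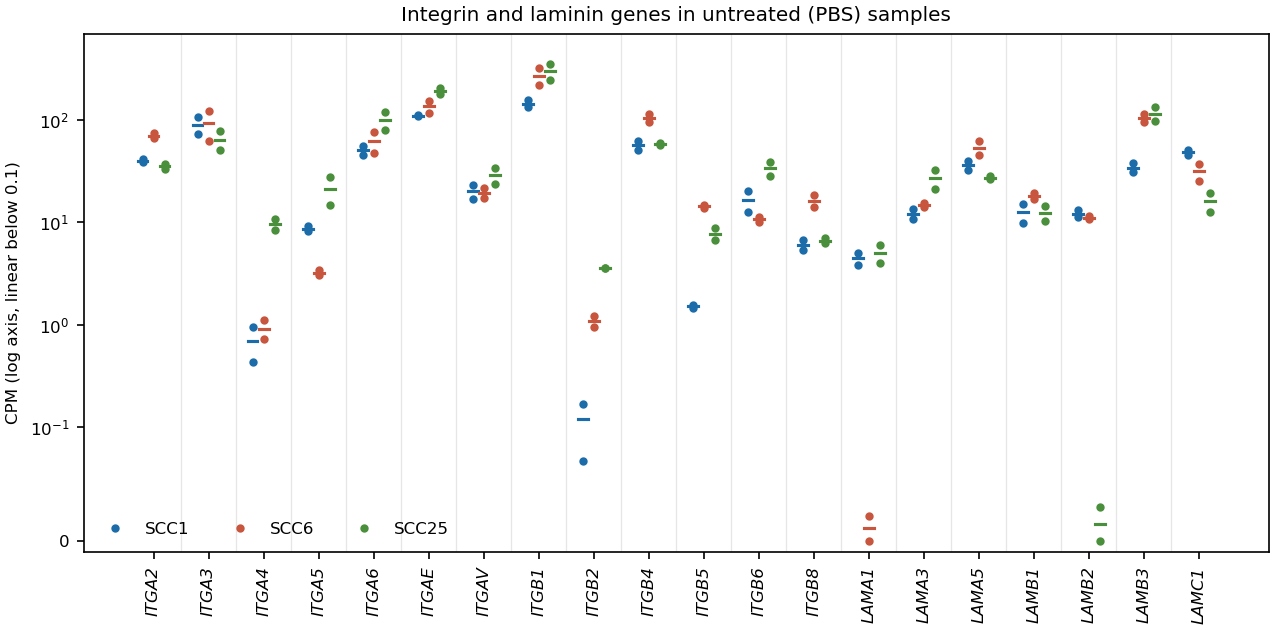
Level of 20 integrin and laminin genes that reached 5 CPM in any of the 12 libraries, shown for the 6 PBS libraries in CPM on a log axis that is linear near 0, with a point per library, a dash for the mean of 2 libraries and a colour per line. LAMB2 falls away in SCC25 and LAMA1 in SCC6, while ITGB1 sits highest in every library.

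Among the beta subunits, ITGB1, the partner of most laminin and collagen receptors, was the most abundant in every untreated library. ITGB1 read 156 and 135 CPM in SCC1, 323 and 220.4 CPM in SCC6 and 358 and 249 CPM in SCC25, and its share of all beta subunit counts was 61.4% to 75.2% over these libraries. SCC1 was the lowest, with no overlap with the others (FDR over the lines = 0.0190). Without SCC1 PBS replicate 1 or replicate 2, the FDR of ITGB1 rose to 0.0701 and 0.130. ITGB4, the hemidesmosome subunit, read 62.1 and 51.6 CPM in SCC1, 115 and 96.4 CPM in SCC6 and 59.2 and 57.3 CPM in SCC25. SCC6 was about 1.86 times the lowest line, and both SCC6 libraries lay above those of SCC1 and SCC25, which overlapped (FDR = 0.00361). ITGB5, a vitronectin receptor subunit, showed the widest gap among the abundant beta subunits, with 1.47 and 1.56 CPM in SCC1, 13.8 and 14.9 CPM in SCC6 and 8.77 and 6.66 CPM in SCC25. SCC6 exceeded SCC1 by a log2 fold change of 3.24 ± 0.26 (SE; FDR = 9.82e-06), and the lines did not overlap.

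ITGB6 was counted at 20.2 and 12.8 CPM in SCC1, 10.1 and 11.4 CPM in SCC6 and 39.3 and 28.4 CPM in SCC25. SCC25 was the highest and SCC6 the lowest, without overlap, and the call over the lines (FDR = 0.0406) was kept in 1 of 6 runs without a PBS library. ITGB8, which also pairs with ITGAV and binds latent TGF-β, was counted at 6.71 and 5.37 CPM in SCC1, 18.4 and 14.1 CPM in SCC6 and 6.96 and 6.34 CPM in SCC25. Both SCC6 libraries exceeded the other 4, which overlapped (FDR = 0.00458). ITGB2, the common leukocyte subunit, was at 0.0699 and 0.168 CPM in SCC1, 0.955 and 1.22 CPM in SCC6 and 3.61 and 3.62 CPM in SCC25. Its level was higher in SCC25 than in SCC1 by a log2 fold change of 4.87 ± 0.58 (SE; FDR = 1.36e-04). ITGB3, of the platelet and vitronectin receptors, was counted 0 times in SCC1 PBS, 10 times in SCC6 PBS and 28 times in SCC25 PBS. Against a floor of 3 counts over the SCC1 PBS group, this made ITGB3 3.17-fold higher in SCC6 and 8.51-fold higher in SCC25. These values leave out the counting error of the SCC6 and SCC25 counts. ITGB7, a lymphocyte subunit, stayed between 0.0314 and 0.476 CPM over the 12 libraries and was higher in SCC6 and in SCC25 than in SCC1 (FDR = 0.0474 and 0.0421), with the call lost in 3 and 4 of 4 runs without a library.

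ITGA1, ITGA2, ITGA3 and ITGA6, alpha subunits of collagen and laminin receptors, were counted in every untreated library. ITGA3, a laminin receptor subunit of keratinocytes, was at 107 and 73.8 CPM in SCC1, 124 and 62.8 CPM in SCC6 and 77.8 and 50.7 CPM in SCC25. The lines overlapped, and no difference was called (FDR over the lines = 0.347). ITGA6, which pairs with ITGB4 or ITGB1 on laminin, was at 56.1 and 45.4 CPM in SCC1, 76.3 and 48.3 CPM in SCC6 and 122 and 80.2 CPM in SCC25. Both SCC25 libraries lay above the other 4, but the test over the lines did not pass (FDR = 0.0666) and that of SCC25 against SCC1 did (a log2 fold change of 0.99 ± 0.35 (SE; FDR = 0.0454)), a call kept in 1 of 4 runs without a library. ITGA2, of the epithelial collagen receptor, was at 41.2 and 39.0 CPM in SCC1, 74.4 and 67.0 CPM in SCC6 and 37.5 and 33.5 CPM in SCC25. SCC6 stood above both other lines without overlap (FDR = 0.00821; without SCC6 PBS replicate 1, 0.0533). ITGA1, another collagen receptor subunit, ranked SCC25, SCC1, SCC6, with 1.20 and 1.36 CPM in SCC1, 0.585 and 0.947 CPM in SCC6 and 2.07 and 2.03 CPM in SCC25, and no line overlapped another (FDR = 0.00775).

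Other alpha subunits separated SCC25 from the rest. ITGA5, the fibronectin receptor subunit, was at 9.14 and 8.26 CPM in SCC1, 3.04 and 3.42 CPM in SCC6 and 27.6 and 14.8 CPM in SCC25. The 3 lines did not overlap, and SCC25 exceeded SCC6 by a log2 fold change of 2.71 ± 0.51 (SE; FDR = 0.00211). ITGA4, known from leukocytes and the neural crest, was at 0.433 and 0.943 CPM in SCC1, 0.728 and 1.10 CPM in SCC6 and 10.9 and 8.52 CPM in SCC25, so that both SCC25 libraries exceeded all others (FDR over the lines = 3.12e-05). ITGA7, a laminin receptor subunit of muscle, was at 0.0279 and 0.0629 CPM in SCC1, 0.275 and 0.239 CPM in SCC6 and 1.63 and 1.25 CPM in SCC25 (FDR = 1.00e-04). ITGA7 overlaps BLOC1S1 in the annotation, whose group means were 82.2 to 197 CPM, and how reads from overlapping genes were assigned is not given in the sources used here. ITGAV, the vitronectin receptor subunit, was at 23.4 and 17.0 CPM in SCC1, 21.5 and 17.1 CPM in SCC6 and 34.2 and 23.8 CPM in SCC25, and its line differences did not pass (FDR = 0.438). The collagen receptor subunits ITGA10 and ITGA11 stayed at or under 0.642 CPM. In SCC25 they exceeded SCC1 by a log2 fold change of 1.90 ± 0.49 (SE; FDR = 0.0111) and a log2 fold change of 1.87 ± 0.61 (SE; FDR = 0.0334), calls kept in 1 of 4 runs without a library for each.

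ITGAE, known as the lymphocyte partner of ITGB7 that binds E-cadherin, had the highest mean of all alpha subunits in each untreated line. It was counted at 109 and 112 CPM in SCC1, 118 and 155 CPM in SCC6 and 207 and 179 CPM in SCC25, whereas ITGB7 stayed under 0.5 CPM in every library. SCC25 was the highest without overlap with the others (FDR over the lines = 0.0292, lost in 4 of 6 runs without a PBS library). The gene overlaps HASPIN and P2RX5, and the assignment of shared reads is not given. The remaining leukocyte and platelet subunits were near the limit of counting. ITGAM stayed at or under 0.301 CPM, ITGAX at or under 0.274 CPM and ITGA2B at or under 0.721 CPM over the 12 libraries. ITGA2B was lower in SCC25 than in SCC6 by a log2 difference of -1.71 ± 0.45 (FDR = 0.0119), and the call was lost in 2 of 4 runs without a library. Over all 12 libraries, 1 UMI was counted for ITGA8, 1 for ITGA9, 9 for ITGAD and 3 for ITGAL.

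These rare subunits were set beside markers of other cells. Of 10 leukocyte markers, CD14 alone reached 1 CPM, MS4A1 was at 0 in every library, and the 10 summed to 0.286 to 13.8 CPM, highest in SCC1. No endothelial marker of 6 reached 1 CPM, with sums of 0.0327 to 1.07 CPM. Of 5 platelet markers, GP6 alone reached 1 CPM, with sums of 0.0629 to 1.75 CPM. All 10 squamous markers reached 1 CPM in at least 1 library and summed to 1123 to 14450 CPM. SCC6 was the lowest in this sum, and KRT5 and KRT14, the basal keratins, stayed at or under 4.47 and 2.52 CPM in all 4 SCC6 libraries.

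The laminin chains gave the largest line differences. LAMB2, a beta chain of vascular and neuromuscular basement membranes, was at 13.1 and 11.3 CPM in SCC1, 11.5 and 10.7 CPM in SCC6 and 0 and 0.0292 CPM in SCC25. With 3 UMIs over both SCC25 PBS libraries, SCC1 was 738-fold (95% counting interval 252 to 3582) and SCC6 677-fold (231 to 3287) above SCC25, intervals that cover counting error only. LAMA1, a chain of embryonic basement membranes, had the reverse gap, with 5.06 and 3.85 CPM in SCC1, 0 and 0.0218 CPM in SCC6 and 5.97 and 4.02 CPM in SCC25. With 2 UMIs over both SCC6 PBS libraries, SCC1 was 384-fold (106 to 3176) and SCC25 428-fold (118 to 3542) above SCC6. LAMC3 was counted 0 times in SCC1 PBS and in SCC1 with cetuximab. Against a floor of 3 counts in SCC1 PBS, LAMC3 was 9.51-fold higher in SCC6 and 21.6-fold higher in SCC25 before treatment. These values leave out the counting error of the SCC6 and SCC25 counts, and LAMC3 stayed at or under 0.515 CPM. LAMB4 was also rare, at or under 0.369 CPM, with 7.61-fold (2.31 to 39.5) and 16.4-fold (5.33 to 82.1) more in SCC6 and SCC25 than in SCC1, where 3 UMIs were counted before treatment. LAMA4, of vessels and muscle, was at 0.252 and 0.482 CPM in SCC1, 0.370 and 0.577 CPM in SCC6 and 4.86 and 4.34 CPM in SCC25, and both SCC25 libraries exceeded the rest (FDR = 2.70e-05). LAMA2, the muscle laminin chain, was at 0.908 and 0.733 CPM in SCC1, 0.310 and 0.305 CPM in SCC6 and 0.635 and 0.680 CPM in SCC25, lowest in SCC6 (FDR = 0.0306, lost in 4 of 6 runs without a PBS library).

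LAMB3 and LAMA3, chains of the epithelial laminin, were present in every line. LAMB3 was at 31.1 and 37.7 CPM in SCC1, 116 and 96.1 CPM in SCC6 and 97.4 and 135 CPM in SCC25, with SCC1 lowest and no overlap with the other lines (FDR = 7.70e-04). LAMA3 was at 13.6 and 10.8 CPM in SCC1, 15.6 and 14.2 CPM in SCC6 and 32.8 and 21.4 CPM in SCC25, with SCC25 highest and not overlapping (FDR = 0.0351, kept in 1 of 6 runs without a PBS library). LAMC1, the gamma chain of most laminins, was highest in SCC1 and lowest in SCC25, at 50.8 and 46.0 CPM in SCC1, 37.6 and 25.5 CPM in SCC6 and 19.4 and 12.7 CPM in SCC25, without overlap (FDR = 0.00452). LAMA5, of adult epithelial basement membranes, was at 40.2 and 32.3 CPM in SCC1, 62.0 and 45.4 CPM in SCC6 and 26.6 and 28.3 CPM in SCC25, and SCC6 was the highest (FDR = 0.0162, lost without SCC6 PBS replicate 1 or SCC25 PBS replicate 1). LAMB1, the most common beta chain elsewhere in the body, was at 9.95 and 15.3 CPM in SCC1, 16.9 and 19.5 CPM in SCC6 and 10.4 and 14.5 CPM in SCC25, and the line differences did not pass (FDR = 0.243).

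Within the laminin alpha and beta families the counts were concentrated in few genes. LAMB3 made up 58.0% of laminin beta counts in SCC1 PBS, 78.1% in SCC6 PBS and 90.1% in SCC25 PBS (means of 2 libraries). LAMB2 made up 20.9%, 8.22% and 0.00973% in the same order. Among the alpha chains, LAMA5 led in SCC1 PBS with 67.0% and in SCC6 PBS with 77.1%, while in SCC25 PBS LAMA5 had 42.8% and LAMA3 41.4%.

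**Figure D2:**
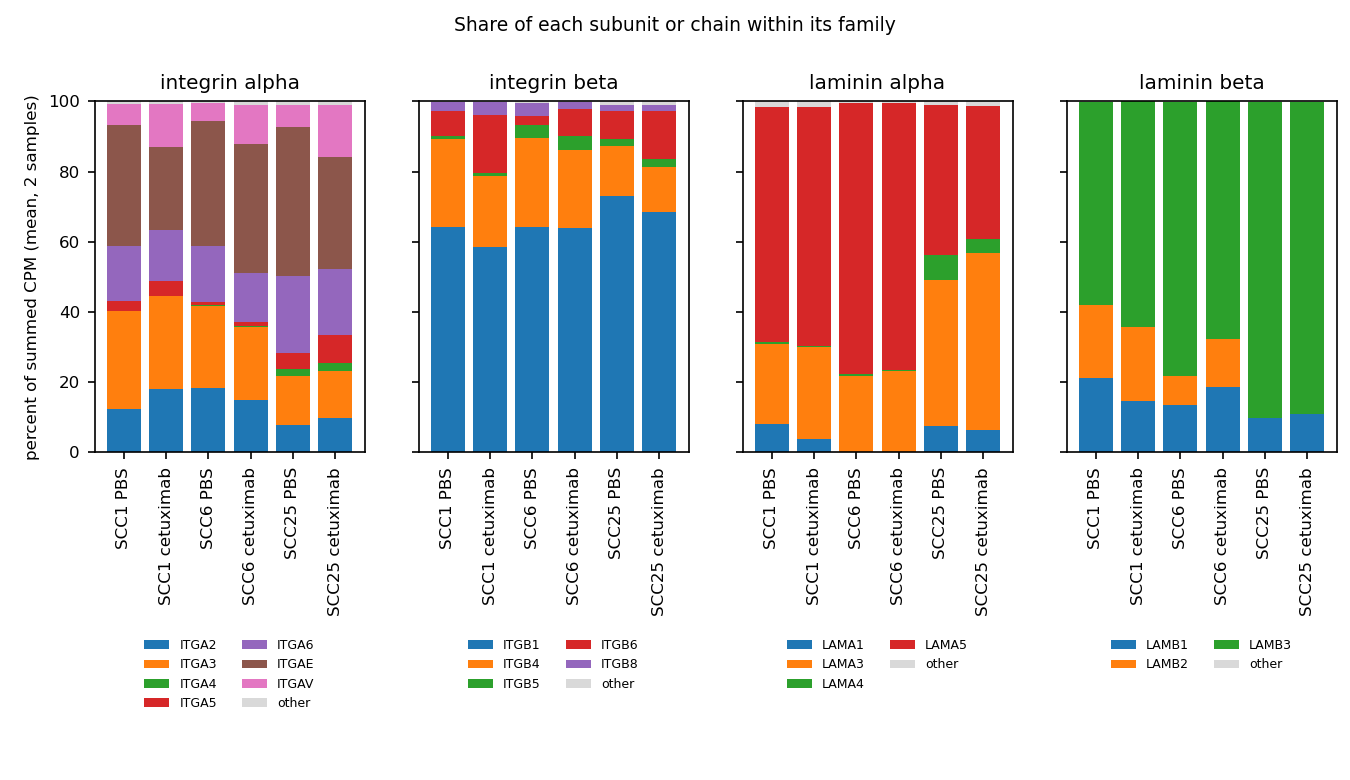
Share of each gene in the summed CPM of its family, in percent, for integrin alpha and beta subunits and laminin alpha and beta chains, as the mean of 2 libraries for each of the 6 groups, with genes that stay small in grey. LAMB2 has no visible share in SCC25, and the share of ITGAV among alpha subunits is larger with cetuximab in each line (12.4% against 6.21% in SCC1, 11.2% against 4.97% in SCC6 and 14.8% against 6.31% in SCC25).

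To ask which of these genes respond to cetuximab, treated and untreated libraries were compared across the lines in a model with line and treatment. ITGB6, ITGAV, ITGB5, ITGA11 and ITGB3 rose and ITGA7 fell, 6 calls among the 34 genes where 3.41% of all genes tested were called. The median log2 change of the 34 was 0.40, beside 0.006 over all genes. In a fit with the replicate number as a block within each line, 14 of the 34 were called beside 11.6% of all genes, which among others added LAMA3, LAMB1, LAMB2, LAMC1, ITGA5 and ITGB1, all higher, and LAMA4, lower. ITGB5 and ITGB6 were higher with cetuximab in all 3 lines without overlap of the groups, 2 of 34 (5.88%) where 3.86% of all genes tested were. ITGAX and LAMA4 were lower in all 3 lines without overlap, 2 of 34 (5.88%) where 3.25% of all genes were. The call of ITGB6 was kept whichever of the 12 libraries was left out, that of ITGB5 in 7 of 12 runs, that of ITGAV in 4, and those of ITGA7, ITGA11 and ITGB3 in 1 each.

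ITGB6 showed the largest change among the abundant genes. It went from 20.2 and 12.8 CPM to 71.6 and 26.9 CPM in SCC1, from 10.1 and 11.4 CPM to 50.6 and 39.6 CPM in SCC6 and from 39.3 and 28.4 CPM to 121 and 45.4 CPM in SCC25. All treated libraries of a line exceeded its untreated ones, by a log2 fold change of 1.65 ± 0.29 (SE; FDR = 0.0151) across the lines. Its partner ITGAV went from 23.4 and 17.0 CPM to 51.5 and 22.4 CPM in SCC1, where the groups overlapped, from 21.5 and 17.1 CPM to 45.8 and 39.1 CPM in SCC6 and from 34.2 and 23.8 CPM to 111 and 46.0 CPM in SCC25. Across the lines ITGAV rose by a log2 fold change of 1.15 ± 0.25 (SE; FDR = 0.0306), and without SCC1 PBS replicate 2 its FDR was 0.0773. In SCC25 the call of ITGAV passed in the fit with a block within line alone (log2 fold change 1.32 ± 0.22, FDR = 0.0310) and was lost with a block shared by the lines (FDR = 0.0800). ITGB5, which pairs with ITGAV, went from 1.47 and 1.56 CPM to 1.90 and 2.27 CPM in SCC1, from 13.8 and 14.9 CPM to 21.1 and 26.6 CPM in SCC6 and from 8.77 and 6.66 CPM to 14.0 and 10.7 CPM in SCC25. The groups separated in each line, with a log2 fold change of 0.63 ± 0.13 (SE; FDR = 0.0251), and the call was lost without SCC1 PBS replicate 1 or 2, SCC6 PBS replicate 1 or 2, or SCC6 cetuximab replicate 2, where the FDR reached 0.0728.

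The other 3 genes called across the lines were rare. ITGB3 went from 0 in both SCC1 PBS libraries to 0.0153 and 0.0228 CPM, from 0.0835 and 0.0326 CPM to 0.0773 and 0.387 CPM in SCC6 and from 0.187 and 0.126 CPM to 0.637 and 0.434 CPM in SCC25 (a log2 fold change of 1.95 ± 0.46 (SE; FDR = 0.0414)). The SCC6 groups overlapped, those of SCC25 did not, and the fitted fold change of a gene at 0 in SCC1 depends on the prior count. ITGA11, a fibroblast collagen receptor subunit, went from 0.0835 and 0.109 CPM to 0.361 and 0.642 CPM in SCC6 and from 0.174 and 0.0972 CPM to 0.417 and 0.346 CPM in SCC25, and overlapped in SCC1 at 0.0279 and 0.0419 CPM without and 0.0460 and 0.0228 CPM with cetuximab (a log2 fold change of 1.58 ± 0.38 (SE; FDR = 0.0440)). ITGA7 went from 1.63 and 1.25 CPM to 0.695 and 0.355 CPM in SCC25 and from 0.275 and 0.239 CPM to 0.129 and 0.0774 CPM in SCC6, while at 0.0279 and 0.0629 CPM and 0.0460 and 0.0228 CPM the SCC1 groups overlapped (a log2 fold change of -1.26 ± 0.30 (SE; FDR = 0.0432)). BLOC1S1, which overlaps ITGA7, was itself lower by a log2 value of -0.33 ± 0.09 (FDR = 0.0603). Leaving out a library removed the calls of ITGA11, ITGB3 and ITGA7 in 11 of 12 runs, with FDRs up to 0.125, 0.126 and 0.108.

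**Figure D3:**
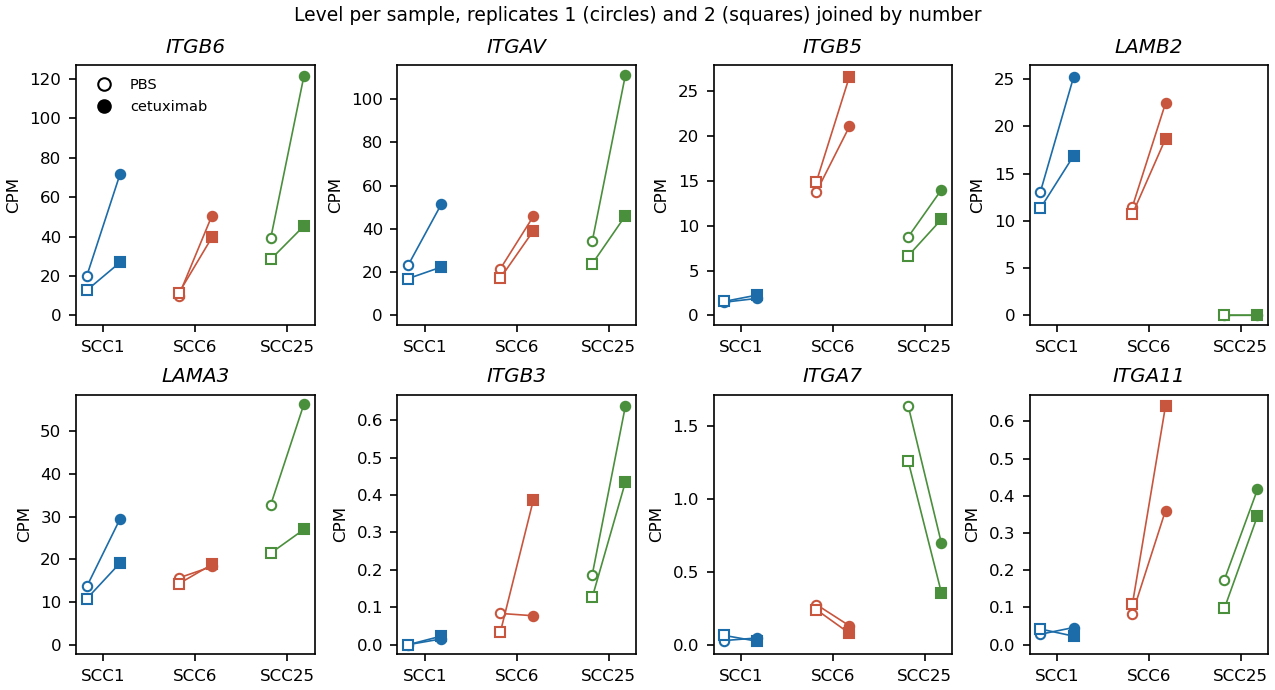
Level in CPM of 8 integrin and laminin genes that the cetuximab comparisons turn on, with a point for each of the 12 libraries by line and treatment, circles for replicate 1 and squares for replicate 2. Treated libraries of ITGB6 and ITGB5 lie above the untreated ones in each of the 3 lines.

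Within single lines and without the block, SCC6 was the line that gave calls. ITGA1 and ITGA11 rose and ITGAX fell, 3 of 34 where 3.7% of all genes were called in SCC6. ITGA1 went from 0.585 and 0.947 CPM to 2.06 and 1.95 CPM (a log2 fold change of 1.38 ± 0.31 (SE; FDR = 0.0382)), ITGA11 as given above (a log2 fold change of 2.37 ± 0.50 (SE; FDR = 0.0313)) and ITGAX, a myeloid subunit, from 0.275 and 0.109 CPM to 0.0258 and 0.0221 CPM (a log2 fold change of -2.92 ± 0.68 (SE; FDR = 0.0442)). For all 3, the treated and untreated SCC6 libraries were separate. Every call was lost without PBS replicate 1, cetuximab replicate 1 or cetuximab replicate 2, and ITGA11 also without PBS replicate 2, with FDRs up to 0.260 for ITGA1, 0.237 for ITGA11 and 0.297 for ITGAX. PELO, which lies within ITGA1 in the annotation, had a mean of 36.2 CPM in SCC6 PBS and 32.1 CPM with cetuximab (log2 fold change -0.17 ± 0.26, FDR = 0.780).

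The block fit called 11 of the 34 in SCC6, where 20.5% of all genes were called. Besides the 3 above these were ITGA4, ITGAV, ITGB1, ITGB5, ITGB6, LAMB1, LAMB2 and LAMC3, all higher with cetuximab. ITGB1 went from 323 and 220.4 CPM to 394 and 369 CPM (block FDR = 0.0323) and ITGA4 from 0.728 and 1.10 CPM to 1.95 and 1.59 CPM (block FDR = 0.0258). Among the laminin chains, LAMB2 went from 11.5 and 10.7 CPM to 22.4 and 18.7 CPM (block FDR = 0.00797), LAMB1 from 16.9 and 19.5 CPM to 25.8 and 30.8 CPM (block FDR = 0.0153) and LAMC3 from 0.167 and 0.174 CPM to 0.515 and 0.465 CPM (block FDR = 0.0318). In each of these the SCC6 groups did not overlap. With a block shared by the lines, ITGA4 (FDR = 0.0810) and ITGB1 (FDR = 0.0507) were lost.

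In SCC1 no integrin or laminin gene was called by edgeR, where 0.0112% of all genes were called. At an unadjusted p under 0.05 were 10 of 34, beside 1557 of 17897 genes. DESeq2 also called 0 of 38, beside 270 of 25899 genes. The block fit called 7 beside 4.96% of all genes, LAMA3, LAMA5, LAMB2, LAMC1, ITGB6 and ITGB8 higher and ITGAE lower. With a block shared by the lines all 7 calls were lost, with FDRs of 0.0625 for LAMC1 to 0.107 for LAMB2. LAMA3 went from 13.6 and 10.8 CPM to 29.4 and 19.1 CPM (block FDR = 0.0124), LAMA5 from 40.2 and 32.3 CPM to 67.3 and 57.6 CPM (block FDR = 0.0135), and both separated from their controls. LAMB2 went from 13.1 and 11.3 CPM to 25.2 and 16.9 CPM (block FDR = 0.0358) and LAMC1 from 50.8 and 46.0 CPM to 93.5 and 64.4 CPM (block FDR = 0.0358). ITGB6 in SCC1 gave a block FDR of 0.0256, and ITGB8, from 6.71 and 5.37 CPM to 13.1 and 7.95 CPM, a block FDR of 0.0490. ITGAE went from 109 and 112 CPM to 57.0 and 76.0 CPM (block FDR = 0.0315), and P2RX5, which overlaps it, was also lower in the block fit (FDR = 0.0225). In SCC25 ITGAE was lower without overlap too, from 207 and 179 CPM to 139 and 169 CPM, but not called (block FDR = 0.359). Its SCC6 groups overlapped, at 118 and 155 CPM without and 122 and 159 CPM with cetuximab.

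In SCC25 no gene of the 34 was called by edgeR, where 0.0% of all genes were called. At an unadjusted p under 0.05 were 8 of 34, beside 1024 of 17897 genes. DESeq2 also called 0 of 38, beside 101 of 25899 genes. The block fit called ITGAV alone beside 1.07% of all genes, a call lost with the shared block as given above. The replicates of SCC25 lay apart for many of these genes. Replicate 1 exceeded replicate 2 for 26 of the 34 (76.5%) in PBS and for 24 (70.6%) with cetuximab, beside 51.9% and 50.2% of all genes tested, whereas in the other 4 groups the count was 17 to 20 of 34. For ITGA5 the SCC25 libraries read 27.6 and 14.8 CPM without and 66.1 and 20.4 CPM with cetuximab, so that replicate 2 of the treated cells lay below replicate 1 of the untreated cells.

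**Figure D4:**
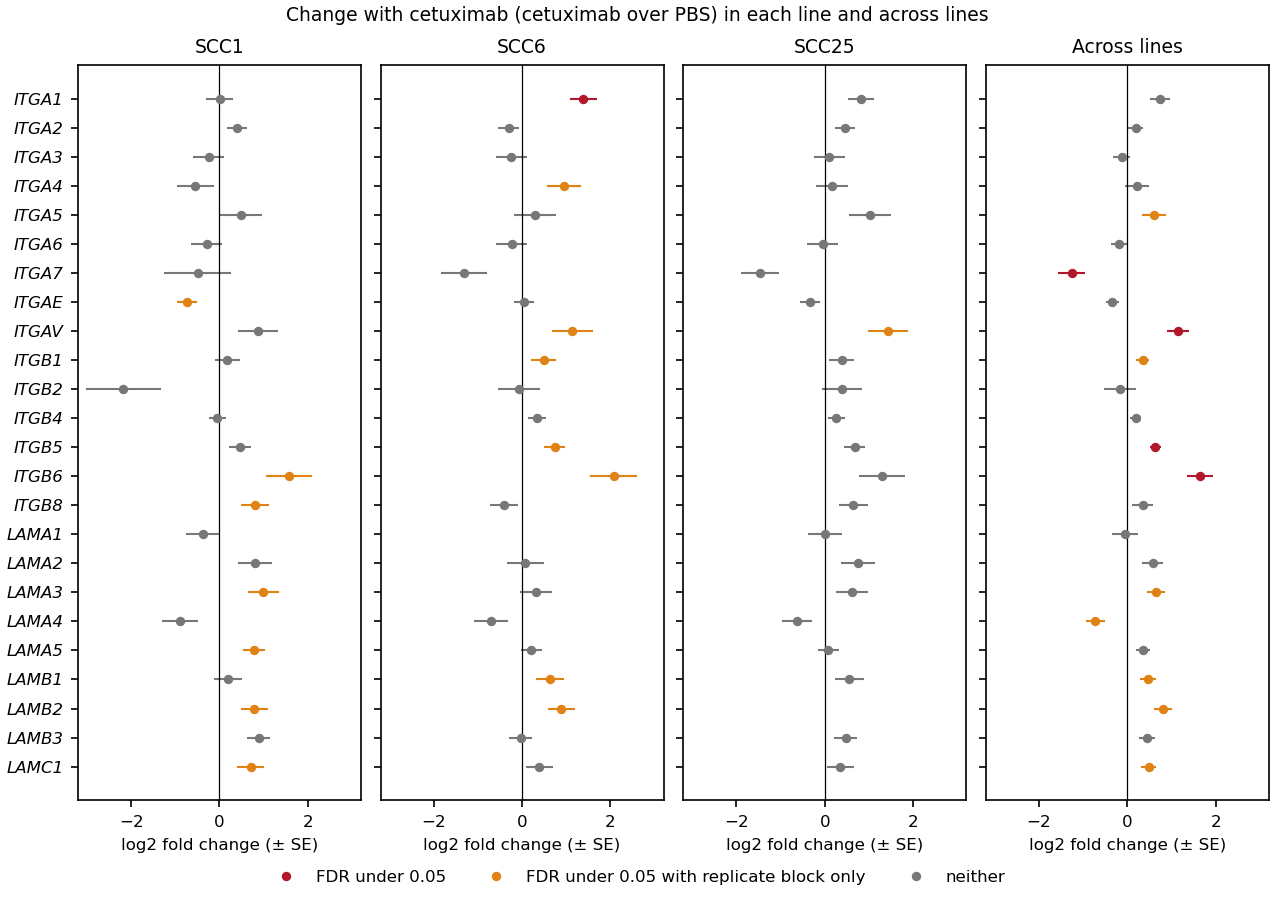
Log2 fold change of cetuximab over PBS with its standard error, in each line and across the lines, for 24 integrin and laminin genes that reached 1 CPM in any library, leaving out LAMB2 in SCC25 and LAMA1 in SCC6, and coloured by FDR with and without the block. ITGB6 is to the right of 0 in each line, at 1.65 across the lines, and ITGA7 to the left in the average, at -1.26.

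Counted by libraries alone, 14 of the 34 genes were higher in SCC1 with cetuximab without overlap (41.2%, all genes 22.3%) and 7 lower (20.6%, all genes 20.4%). In SCC6 these were 16 higher (47.1%, all genes 25.5%) and 6 lower (17.6%, all genes 21.4%), and in SCC25 11 higher (32.4%, all genes 14.4%) and 5 lower (14.7%, all genes 15.3%). The 34 genes had a median log2 change of 0.18 (SCC1), 0.39 (SCC6) and 0.39 (SCC25), beside medians over all genes of 0.001, 0.0 and -0.007. Whether the change depended on the line was asked with an interaction term. That F-test called 0 of 34 by edgeR, where 0.0% of all genes were called. At an unadjusted p under 0.05 were 5 of 34, beside 1303 of 17897 genes. DESeq2 called 0 of 38, beside 272 of 25899 genes. The block fit also called 0 of 34, where 1.53% of all genes were called.

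For 4 integrin subunits, 11.8% of the 34, the treated libraries lay apart from the untreated ones in opposite directions in different lines, as they did for 10.1% of all genes tested. ITGB8 went from 6.71 and 5.37 CPM to 13.1 and 7.95 CPM in SCC1 and from 6.96 and 6.34 CPM to 13.2 and 7.67 CPM in SCC25, but from 18.4 and 14.1 CPM to 13.4 and 11.1 CPM in SCC6. ITGA2 went from 41.2 and 39.0 CPM to 64.0 and 41.7 CPM in SCC1 and from 37.5 and 33.5 CPM to 55.9 and 41.8 CPM in SCC25, but from 74.4 and 67.0 CPM to 54.9 and 59.7 CPM in SCC6. The rare ITGA10 was lower in SCC1 and higher in SCC6 and SCC25, and ITGA2B was lower in SCC1 and SCC25 and higher in SCC6. The difference between lines did not pass the interaction test for any of them (FDR = 0.675 for ITGB8, 0.746 for ITGA2, 1.00 for ITGA10 and 0.645 for ITGA2B).

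The remaining epithelial genes gave smaller changes. ITGA3 and ITGA6, the alpha subunits that bind the epithelial laminin, had log2 fold changes across the lines of -0.13 ± 0.19 (FDR = 0.756) and -0.19 ± 0.19 (FDR = 0.612). With cetuximab, ITGA3 read 86.1 and 66.3 CPM in SCC1, 79.6 and 77.5 CPM in SCC6 and 81.1 and 56.8 CPM in SCC25, and ITGA6 read 46.2 and 36.7 CPM in SCC1, 58.5 and 47.0 CPM in SCC6 and 128 and 66.5 CPM in SCC25. ITGB4 read 55.0 and 54.7 CPM in SCC1, 148 and 119.8 CPM in SCC6 and 63.9 and 76.1 CPM in SCC25 (a log2 fold change of 0.19 ± 0.11 (SE; FDR = 0.389)), above its controls without overlap in SCC6 and SCC25 and within their range in SCC1. ITGB1 read 188 and 139.5 CPM with cetuximab in SCC1 and 475 and 315 CPM in SCC25 (a log2 fold change of 0.35 ± 0.15 (SE; FDR = 0.216); block FDR = 0.0421). ITGA5 read 14.6 and 9.87 CPM in SCC1, 3.57 and 4.33 CPM in SCC6 and 66.1 and 20.4 CPM in SCC25, with a log2 fold change of 0.61 ± 0.27 (SE; FDR = 0.219) and a block FDR of 0.0378, lost with the shared block (FDR = 0.124).

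Across the lines, LAMA3, LAMB1, LAMB2 and LAMC1 rose and LAMA4 fell in the block fit, and no laminin chain passed in edgeR without the block. DESeq2 without the block called LAMB2 (FDR = 0.00103), LAMA4 (FDR = 0.0117) and LAMA3 (FDR = 0.0432). LAMB2 was nearest, with a log2 fold change of 0.80 ± 0.20 (SE; FDR = 0.0501) and a block FDR of 0.0116. In SCC25 it stayed at 0.0116 and 0.0198 CPM with cetuximab. LAMA3 read 29.4 and 19.1 CPM in SCC1, 18.3 and 18.8 CPM in SCC6 and 56.3 and 27.0 CPM in SCC25 (a log2 fold change of 0.64 ± 0.20 (SE; FDR = 0.0988); block FDR = 0.0196), and its groups overlapped in SCC25 alone. LAMB3 read 64.5 and 62.7 CPM in SCC1, 90.5 and 118 CPM in SCC6 and 196 and 127 CPM in SCC25, with a log2 fold change of 0.45 ± 0.17 (SE; FDR = 0.169) and no call in the block fit either (FDR = 0.167). The treated SCC1 libraries of LAMB3 lay above their controls, while in SCC6 and SCC25 the groups overlapped.

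LAMC1 read 93.5 and 64.4 CPM in SCC1, 48.8 and 33.8 CPM in SCC6 and 22.5 and 18.6 CPM in SCC25 with cetuximab (block FDR across the lines = 0.0176). LAMB1 read 12.6 and 16.3 CPM in SCC1, 25.8 and 30.8 CPM in SCC6 and 13.2 and 23.6 CPM in SCC25 (block FDR = 0.0231). LAMA5 read 67.3 and 57.6 CPM in SCC1, 70.9 and 53.3 CPM in SCC6 and 25.1 and 32.8 CPM in SCC25 (block FDR = 0.0971), apart from its controls in SCC1 alone. LAMA4 was the one laminin chain lower in every line without overlap, from 0.252 and 0.482 CPM to 0.153 and 0.240 CPM in SCC1, 0.370 and 0.577 CPM to 0.283 and 0.299 CPM in SCC6 and 4.86 and 4.34 CPM to 2.75 and 3.24 CPM in SCC25 (a log2 fold change of -0.72 ± 0.21 (SE; FDR = 0.0743); block FDR = 0.0272). ITGAX was also lower in every line, yet it passed neither edgeR fit across the lines (FDR = 0.0922; block FDR = 0.0779; DESeq2 FDR = 0.0454). In SCC1 the counts behind it were 15 UMIs without and 3 UMIs with cetuximab.

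Proteins that work with integrins and laminins were counted from lists of the adhesion plaque (34 genes), the hemidesmosome (4), the basement membrane other than laminins (17), laminin receptors other than integrins (6) and integrin ligands other than laminins (21), and 79 of these 82 genes were tested. Across the lines, 17 of the 79 were called beside 3.41% of all genes, 16 higher and RPSA, a ribosomal protein with many pseudogenes that is also described as a laminin receptor, lower. By list, these were 5 of 34 in the adhesion plaque (FBLIM1, LIMS2, NEDD9, TGFB1I1 and SRC), 0 of 4 in the hemidesmosome, 6 of 16 in the basement membrane (AGRN, COL4A3, COL4A4, FRAS1, SPARC and COL4A1), 1 of 6 among other receptors and 5 of 19 among the ligands (COL1A2, TNC, THBS1, FBN1 and VTN). For the 4 hemidesmosome genes, 3 were at an unadjusted p under 0.05, as were 3744 of 17897 genes. The block fit called CD151 and COL17A1, both higher. The median log2 changes of the lists were 0.18, 0.38, 0.91, 0.21 and 0.85 in the order given, beside 0.006 over all genes. The block fit called 32 of the 79, 31 higher and 1 lower, beside 11.6% of all genes.

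Type IV collagen and fibronectin are major integrin ligands. COL4A1 went from 20.9 and 9.59 CPM to 41.8 and 20.1 CPM in SCC1, from 14.9 and 14.7 CPM to 136 and 101 CPM in SCC6 and from 29.8 and 13.6 CPM to 62.1 and 38.5 CPM in SCC25, and the groups overlapped in SCC1 alone. Its call in SCC6 passed without the block (log2 fold change 3.00 ± 0.52, FDR = 0.0170). FN1, fibronectin, went from 390.3 and 217 CPM to 1071 and 579 CPM in SCC1, from 506 and 516 CPM to 3459 and 2667 CPM in SCC6 and from 54.8 and 11.4 CPM to 116 and 22.9 CPM in SCC25, where the groups overlapped. FN1 was called in the block fit of SCC6 (FDR = 5.41e-05), SCC1 (FDR = 0.00137) and SCC25 (FDR = 0.00950). Block calls of the listed genes were not checked with the block shared by the lines, and none of their calls by leaving out libraries. Over all genes, the shared block called 190 in SCC1, 2481 in SCC6, 27 in SCC25 and 2097 across the lines. The block within line called 888, 3667, 191 and 2083. FBN1, fibrillin, rose across the lines by a log2 value of 2.54 ± 0.39 (FDR = 0.00980), and LIMS2, an adaptor of the integrin-linked kinase, by 1.40 ± 0.22 (FDR = 0.00999).

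FBLIM1, a partner of filamin at adhesions, rose by 0.65 ± 0.11 (FDR = 0.0151) and the kinase SRC by 0.60 ± 0.10 (FDR = 0.0151). SPARC, a collagen-binding matrix protein, went from 164 and 166 CPM to 575 and 431 CPM in SCC1 but from 0.0477 and 0.109 CPM to 1.36 and 0.951 CPM in SCC6 and 0.411 and 0.671 CPM to 0.788 and 1.64 CPM in SCC25, and rose across the lines by 1.93 ± 0.36 (FDR = 0.0176). COL4A4, another type IV collagen chain, rose by 3.10 ± 0.52 (FDR = 0.0125). The proteoglycans AGRN and HSPG2 were called across the lines in the block fit, by log2 values of 0.74 ± 0.07 (FDR = 0.00272) and 0.74 ± 0.10 (FDR = 0.00760). The ligand THBS1, thrombospondin, gave 1.48 ± 0.20 (FDR = 0.00741) in that fit.

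Within lines, SCC6 gave 13 calls among the 79, all higher, beside 3.7% of all genes, and 39 in the block fit, 35 higher and 4 lower, beside 20.5% of all genes. Among these, COL1A1 went from 1.03 and 2.75 CPM to 22.6 and 18.8 CPM (log2 fold change 3.45 ± 0.41, FDR = 0.00650), LIMS2 from 4.15 and 4.03 CPM to 18.2 and 17.9 CPM (FDR = 0.00725) and FRAS1, a basement membrane protein, from 2.24 and 2.15 CPM to 16.5 and 9.39 CPM (FDR = 0.00909). SCC1 gave 0 calls by edgeR, with 18 genes at an unadjusted p under 0.05, beside 1557 of 17897. Its block fit gave 18 calls, 17 of them higher, beside 4.96% of all genes. SCC25 gave 0 calls by edgeR, with 21 genes at an unadjusted p under 0.05, beside 1024 of 17897. Its block fit gave 10 calls, all higher, beside 1.07% of all genes. The interaction of line and treatment gave 0 calls by edgeR. At an unadjusted p under 0.05 were 16 of the 79, beside 1303 of 17897 genes. Its block fit gave 12 calls, beside 1.53% of all genes. Among these 12, COL4A1 (FDR = 0.0129), FN1 (FDR = 0.0135) and COL4A2 (FDR = 0.0135) had the smallest values. Before treatment, 51 of the 79 differed between the lines, where 59.2% of all genes did, led by SPARC, at a mean of 165 CPM in SCC1 and under 1 CPM in SCC6 and SCC25 (FDR = 5.73e-07).

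The summed fibroblast markers were higher with cetuximab in each line, but the groups overlapped for some of the markers. Of 8 markers, 7 reached 1 CPM, and their sum was 7.23 and 7.53 CPM at the lowest and highest in SCC1 PBS and 15.4 and 16.6 CPM with cetuximab, 1.15 and 3.33 against 23.0 and 27.3 CPM in SCC6, and 21.9 and 42.5 against 46.4 and 84.3 CPM in SCC25. COL1A1 and COL1A2 are in this list and among the ligands. PDGFRB went from 0.0358 and 0.0653 CPM to 1.31 and 1.36 CPM in SCC6 and COL3A1 from 0 and 0.207 CPM to 2.65 and 2.01 CPM. LUM in SCC25 read 8.57 and 30.6 CPM without and 18.15 and 58.0 CPM with cetuximab, so that its groups overlapped. The groups also overlapped for PDGFRB, DCN and THY1 in SCC25 and for COL1A1 in SCC1. THY1 was at 0 in 6 of the 8 libraries of SCC1 and SCC6 and PDGFRA at or under 0.185 CPM in all 12. The part of these markers in the changes of integrin and laminin genes was not tested.

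To see whether the levels were carried by most cells, each cell was thinned to 15000 UMIs, which left out 851 of 23914 cells, and cells with at least 1 UMI of a gene were counted. No doublet caller was run. ITGB1 was found in 83.3% to 99.5% of the cells of a library, ITGAE in 59.0% to 91.7%, ITGA3 in 48.1% to 75.2%, ITGB4 in 48.5% to 83.5% and ITGA6 in 42.9% to 75.5%. By comparison, the T cell gene CD3D was found in at most 0.0742% and the endothelial gene PECAM1 in at most 0.320% of cells of a library, and ITGB7 in at most 0.772%, ITGAX in at most 0.415% and ITGAM in at most 0.625%. The B cell gene CD79A reached 3.24%, in SCC6. Shares of the rare genes ITGA2B, ITGA7, ITGA10, ITGA11, ITGB3, LAMB4 and LAMC3, at most 1.87% in any library, also lay under that of CD79A. CD79A itself varied by line, at 0.0% to 0.0610% in SCC1 PBS, 1.60% to 3.24% in SCC6 PBS and 0.686% to 0.799% in SCC25 PBS. It therefore sets no common floor, and the highest of the rare shares, 1.87% for ITGA7, was in SCC25 PBS. Whether shares this low are background was not tested. The differences in CPM given for these genes and for ITGB7, ITGAX and ITGAM are between levels in this range.

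The share of ITGB6 cells was larger with cetuximab in each line. It went from 24.1% and 17.0% to 57.1% and 32.1% in SCC1, from 10.3% and 12.8% to 47.6% and 40.0% in SCC6, and from 38.9% and 29.0% to 74.0% and 42.8% in SCC25. Without thinning, the shares were 52.7% and 41.2% and 87.2% and 62.5% in SCC1, 23.6% and 28.7% and 62.2% and 74.4% in SCC6, and 62.7% and 57.0% and 93.7% and 74.6% in SCC25, without and with cetuximab. LAMB2 cells made up 18.2% to 19.1% of SCC1 PBS, 13.3% to 14.3% of SCC6 PBS and 0.0% to 0.0799% of SCC25 PBS. LAMA1 was found in 5.67% to 7.68% of SCC1 and SCC25 cells and in 0.0% to 0.183% of SCC6 cells over all their libraries. For LAMB2 in SCC25 PBS replicate 1 and LAMA1 in SCC6 PBS replicate 1, 0 of 2188 cells held a UMI, which allows a share of up to 0.137% and 0 of 2652 cells held a UMI, which allows a share of up to 0.113%. These limits hold for cells with a UMI and do not bound the share of cells that express the gene.

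LAMB3 counts were uneven between cells in SCC1. In SCC1 cetuximab replicate 1, the 5% of cells with the highest counts held 45.5% of LAMB3 UMIs in thinned cells, against 27.9% of LAMA5 and 24.5% of ITGA3. LAMB3, LAMA5 and ITGA3 were counted at similar levels in these cells, 1.47, 1.40 and 1.69 UMIs per cell. For ITGB1, at 3.48 UMIs per cell, the top 5% of cells held 20.9%. Other genes of this library lay between LAMA5 and LAMB3. Among them, ITGAV held 37.3% at 1.12 UMIs per cell, ITGB6 33.7% at 1.46, LAMC1 32.3% at 2.00 and ITGA2 28.1% at 1.24. The most counted in a single thinned cell of this library was 29 UMIs each for LAMB3 and ITGB1, 15 for LAMA5 and 24 for ITGA3. In SCC6 cetuximab replicate 1 LAMB3 was closer to LAMA5 and ITGA3, with 21.5% beside 19.3% and 19.2%. In SCC6 PBS replicate 1 the shares of LAMB3 and ITGA3 were 26.0% and 17.8%, at 1.47 and 1.585 UMIs per cell. In SCC25 PBS replicate 1 they were 25.7% and 19.25%, at 1.43 and 1.18 UMIs per cell. In SCC25 cetuximab replicate 1 they were 21.0% and 19.55%, at 3.01 and 1.24 UMIs per cell, levels that do not match. Correlations across the cells of a library were calculated for 7 pairs of genes whose products assemble and 4 pairs of integrin subunits that do not pair with each other, on log2(UMIs + 1) of thinned cells, and describe cells that share a library and its depth. LAMA3 and LAMB3 had the highest median, with Pearson r of 0.115 to 0.549 over the 12 libraries (median 0.220). Their highest value was in SCC1 cetuximab replicate 1, and replicate 2 gave 0.448. ITGA6 and ITGB4 gave 0.133 to 0.256, ITGAV and ITGB6 0.078 to 0.466, ITGA3 and ITGB1 0.047 to 0.398 and ITGA2 and ITGB1 -0.031 to 0.265. Among the pairs that do not assemble, ITGA2 and ITGA3 gave -0.003 to 0.265, and ITGB5 with ITGB6, ITGB5 with ITGB8 and ITGB6 with ITGB8 reached 0.122, 0.053 and 0.186 at their highest. All of these but ITGB5 with ITGB8 were also highest in SCC1 cetuximab replicate 1. ITGAV with ITGB5 and ITGAV with ITGB8 stayed at or under 0.108 and 0.134, which in counts this sparse is no finding. Values on CPM per cell without thinning ranged from 0.193 to 0.575 for LAMA3 and LAMB3 and from 0.106 to 0.359 for ITGAV and ITGB6.

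**Figure D5:**
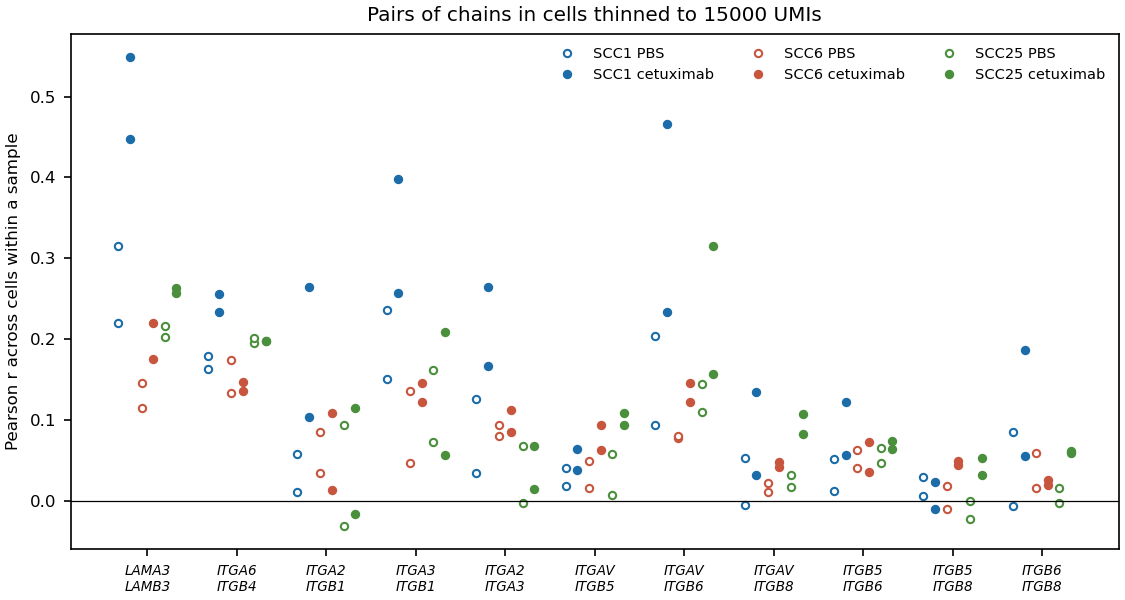
Pearson r across thinned cells for 7 pairs of integrin subunits or laminin chains that assemble and 4 that do not (ITGA2 with ITGA3, and ITGB5, ITGB6 and ITGB8 with each other), with a point for each of the 12 libraries by line and treatment. LAMA3 with LAMB3 reaches 0.549 at its highest and ITGAV with ITGB6 0.466, both in SCC1 cetuximab replicate 1. Replicate 2 gives 0.448 and 0.233, and most pairs, assembling or not, are highest in that replicate 1 library.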

How the data were processed

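The deposited tables held raw UMI counts per gene and cell, 1 table per line, and groups and replicate numbers came from the sample labels. Reads had been aligned and counted by the authors with Cell Ranger, and the submitters' processing notes name the build GRCh38. The annotation, the use of strand and the treatment of reads shared by overlapping or near-identical genes are not given in the sources used here. All 23914 deposited cells were used. The depth was 57057402 to 112170073 UMIs per library. Rare genes are limited by counting, and intervals cover counting error only.

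Counts were summed per library, because cells are not replicates. They were tested in R 4.3.3 with the robust quasi-likelihood F-test of edgeR 4.0.16 (limma 3.58.1), with TMM factors, filterByExpr and a mean for each of the 6 groups, or with line and treatment for the change across lines. Two-sided p-values were adjusted over all genes tested with the Benjamini-Hochberg procedure (FDR, threshold 0.05). In simulated data for the SCC6 comparison with 17559 genes, this test recovered 92% of genes changed by a log2 value of 2 and 13% of those changed by 1, with 8 false calls. The changed genes were drawn from those above 5 CPM in SCC6 PBS. The recovery therefore does not cover rarer genes such as ITGA1, ITGA11 and ITGAX. Simulated libraries were also drawn independently of each other, so recovery and false calls do not cover deviations shared between libraries. Same-numbered libraries deviated together, with correlations of deviations from the group means of 0.377 in SCC1, 0.349 in SCC6 and 0.598 in SCC25. For groups of different lines they were 0.178 to 0.428, so these values do not single out a pairing within line. The fit with replicate as a block within line is printed where it changes a call. The block follows the replicate number in the labels, which do not say that same-numbered libraries belong together.

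Named were the members, of which 1 is counted in all totals but not reported here by name, with values per library for those called (or called with the block where fewer than 5 were called) and for 16 epithelial members. Of the pathway genes, up to 6 called genes per comparison with a mean of at least 5 CPM were named by smallest p. Members, lists and rules were chosen with earlier results of these data known. Motif searches covered RefSeq promoter windows. Alternatives were another filter, DESeq2 1.42.0 or its size factors, fits without cells of highest depth or of more than 20% mitochondrial UMIs, thinned cells, fewer samples per fit and leaving out each library.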

Additional observations from a re-analysis of the deposited data

How the results depend on the processing

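A block of the replicate number within line moved the integrin and laminin calls from 0 to 7 in SCC1 and 3 to 11 in SCC6. It moved them from 0 to 1 in SCC25 and from 6 to 14 across the lines. Over all 17897 genes, that block called 888, 3667, 191 and 2083 in the same order, against 2, 663, 0 and 611 without it. A block shared by the lines called 0 in SCC1, 9 in SCC6, 0 in SCC25 and 13 across the lines. Beside these, it called 190, 2481, 27 and 2097 of 17897 genes. The block moved none of the other comparisons by more than 1.5 times. DESeq2 called 5 in SCC6 and 11 across the lines, beside 1666 and 1769 of 25899 genes. In SCC6, thinned cells gave 1 call and a fit of the 4 samples of the line gave 1. Leaving out each library gave 0 to 2 calls in SCC6, 1 to 5 across the lines, 7 to 12 for untreated SCC6 against SCC1, 11 to 17 for SCC25 against SCC1 and 11 to 14 for SCC25 against SCC6. A group left with 1 library was assumed to vary like the others. The cause of these moves was not tested. The remaining 103 counts of called genes lay within 1.5 times of the reported ones, and no log2 fold change of a called gene turned its direction, with 850 of 1036 on the same side of the threshold, 160 no longer past it and 26 newly past it. All 25 shares of cells differed between thinned and whole cells, as did 4 of 11 correlations by more than the spread between replicates. At 3 counts or fewer in a group, depth limits what can be said, which applies among the genes tested to LAMB2 in SCC25, LAMA1 and ITGAM in SCC6 PBS, LAMB4, LAMC3 and ITGB3 in SCC1, and ITGAX in SCC1 with cetuximab.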
